A study of Caenorhabditis elegans with 12 samples.

Results

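The genes described here are 10 antioxidant genes of *C. elegans*, chosen by name from the 46904 genes in the deposited values. They are the superoxide dismutases *sod-1* to *sod-5*, the catalases *ctl-1*, *ctl-2* and *ctl-3*, the peroxiredoxin *prdx-2* and the glutathione reductase *gsr-1*. All 10 were found, and 9 of them passed the filter on low values in each comparison, the exception being *sod-5*. The RNA came from whole worms, in 4 groups with 3 independently collected samples of at least 500 worms in each. The first group, N2 *rpia-1* RNAi, held wild type N2 worms that were fed *rpia-1* RNAi bacteria in adulthood only, from day 0, and were labelled day 5, and the second, N2 EV, held N2 worms on empty vector (EV) bacteria, also labelled day 5. TU3401 *rpia-1* RNAi and TU3401 EV were the corresponding groups of strain TU3401, fed from the embryonic stage and labelled day 0 of adulthood, although their sample descriptions carry the larval stage L4 and the methods give day 5 as the harvest for all samples. All 4 groups were fed *E. coli* HT115 during RNAi. Both TU3401 groups carry the array uIs69, made of the marker pCFJ90, a myo-2p::mCherry construct, together with unc-119p::sid-1, in which the pan-neuronal *unc-119* promoter drives *sid-1*, the channel that lets double-stranded RNA into cells. The paper describes TU3401 as a neuron-enhanced, or neuron-hypersensitive, knockdown strain, but the RNA measured came from the whole worm. Strain, labelled day and RNAi onset differed together between the N2 and TU3401 groups and cannot be told apart.

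Superoxide dismutases convert superoxide to hydrogen peroxide. Catalases and peroxiredoxins break that peroxide down. Peroxiredoxins are recycled by thioredoxin and thioredoxin reductase, and glutathione reductase regenerates glutathione, and both reductases draw their electrons from NADPH. The gene targeted by RNAi, *rpia-1*, encodes an isomerase of ribose phosphates. It belongs to the pentose phosphate pathway, whose oxidative phase makes NADPH, and the comparisons ask whether the transcripts of the enzymes around NADPH and peroxide differed after the knockdown.

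TPM (transcript abundance scaled by gene length and library) and FPKM are deposited without read counts, so depth is unknown and a level has no counting interval. Genes above 0 TPM numbered 22388 in N2 *rpia-1* RNAi replicate 1, against 17777 to 19135 in the other N2 libraries and 20557 to 22945 in the TU3401 libraries. Summed marker genes differed between the strains: body wall muscle markers summed to 44.2 ± 5.00 TPM in N2 EV, against 2450 ± 231 TPM in TU3401 EV (SD, n = 3 each), sperm markers to 1.23 ± 0.909 TPM and 865 ± 179 TPM, and germline and oocyte markers to 3135 ± 93.1 TPM and 1465 ± 147 TPM in the same order of groups.

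By the limma test, the targeted gene checked the labels in N2 only. *rpia-1* (chromosome III, 7123128 to 7124335 of WBcel235) was at 27.5, 32.8 and 30.2 TPM in N2 *rpia-1* RNAi worms, against 128, 115 and 120 TPM in N2 EV worms. Its log2 difference was -1.97 (SE 0.08, limma, adjusted p = 5.3e-04). It was at 82.0, 88.5 and 106 TPM in TU3401 *rpia-1* RNAi worms, against 107, 107 and 115 TPM in TU3401 EV worms. That difference of -0.26 (95% interval -0.52 to 0.01) did not pass the test (limma, adjusted p = 1.00). Every TU3401 knockdown library still lay below every TU3401 EV library, at a ratio of means of 0.84. Groups that did not overlap made up 3.38% of the genes tested in TU3401.

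The 10 genes spanned more than 3 orders of magnitude in TPM, which is scaled per transcript length and can be compared between genes. *prdx-2*, the 2-Cys peroxiredoxin, was the most abundant, with a mean of 1156 ± 7.45 TPM in N2 *rpia-1* RNAi, 1173 ± 73.2 in N2 EV, 1100 ± 87.5 in TU3401 *rpia-1* RNAi and 1101 ± 60.3 in TU3401 EV (SD, n = 3 each). By group mean it ranked 130 to 152 among all genes. *sod-1*, *sod-2* and *gsr-1* followed in this order in all 4 groups, and neighbours among these 4 did not overlap in any group. Below them the order differed between the strains. In both N2 groups *ctl-3* came next, then *ctl-1*, *sod-4* and *ctl-2*, and the ranges of *sod-4* and *ctl-2* overlapped in N2 EV but not in N2 *rpia-1* RNAi. In both TU3401 groups *ctl-2* had the highest mean of the catalases, the range of each catalase overlapped that of its neighbour in the order, and *sod-4* lay below all 3. *sod-3* and *sod-5* stood at the bottom in each group, and their ranges overlapped in the N2 groups only.

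**Figure D1:**
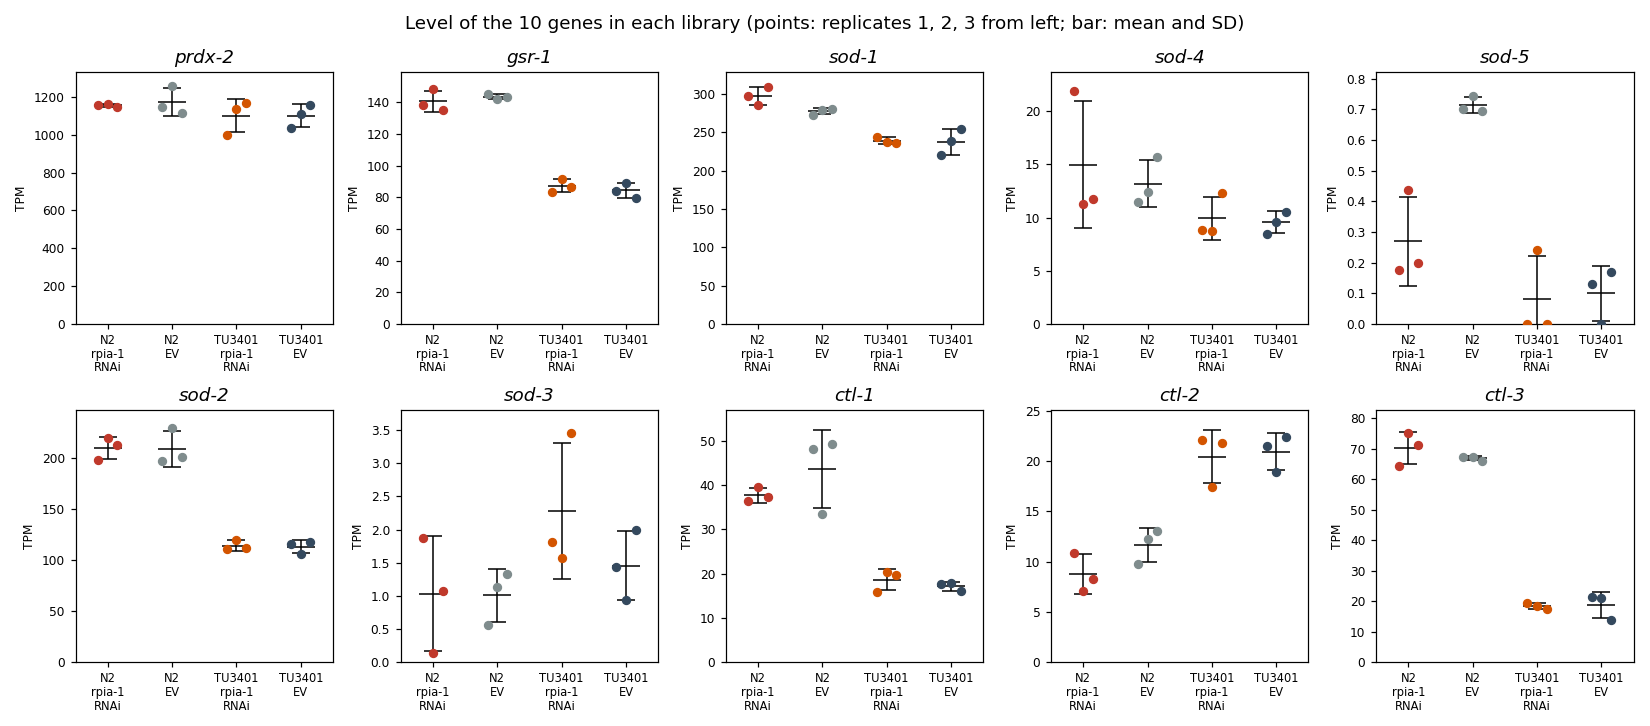
TPM of the 10 genes in each library, 1 panel per gene with its own axis from 0, for N2 *rpia-1* RNAi, N2 EV, TU3401 *rpia-1* RNAi and TU3401 EV. Points are replicates and bars the mean and SD. In *gsr-1*, *sod-1*, *sod-2*, *ctl-1* and *ctl-3* the N2 points all lie above the TU3401 points, and in *ctl-2* they all lie below. Within a strain the knockdown and EV points of *sod-1* and *sod-5* are apart in N2 alone.

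Adult knockdown of *rpia-1* in N2 left none of the antioxidant genes past the test. Of the 9 tested, 0 were called (limma, adjusted p under 0.05), beside 0.00941% of the 10626 genes tested, the 1 called gene being *rpia-1* itself, and 0 had an unadjusted p under 0.05, against 1.66% of all genes. The count was 0 also without a filter, with FPKM and after rescaling, beside 0.00740%, 0.0107% and 0.00939% of all genes. Of the log2 differences 4 were above 0 and 5 below, with a median of -0.02. They ran from -0.39 (*ctl-2*) to 0.12 (*sod-4*). Across all 10 genes, the knockdown and EV libraries did not overlap for 2, *sod-1* and *sod-5*. Groups that did not overlap made up 5.11% of the tested genes, 1.96% higher and 3.15% lower, and 3.83% of the genes with a mean above 0 and under 1 TPM, the class of *sod-5*, 2.40% higher and 1.43% lower. In whole-worm RNA fewer cells of a type and less RNA per cell cannot be told apart.

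Among the copper/zinc enzymes, *sod-1* encodes the main cytosolic superoxide dismutase. It was at 297, 286 and 309 TPM in N2 *rpia-1* RNAi, against 273, 280 and 280 TPM in N2 EV. Every knockdown library lay above every EV library, by a ratio of means of 1.07. The log2 difference of 0.10 (95% interval -0.0035 to 0.20) had an unadjusted p of 0.0563 and an adjusted p of 1.00 (limma), and the exact two-sided permutation p was 0.1, the smallest that 3 against 3 samples allow. With FPKM in place of TPM the sign turned (-0.03), where the median of all genes was -0.13. After rescaling the libraries by the median ratio it was 0.11.

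*sod-4*, whose product is the extracellular copper/zinc superoxide dismutase, was at 21.8, 11.3 and 11.7 TPM in N2 *rpia-1* RNAi, against 11.4, 12.4 and 15.6 TPM in N2 EV. Replicate 1 of the knockdown was high, while the other 5 libraries overlapped, and it is the N2 library with the most genes above 0. The log2 difference was 0.12 (95% interval -0.49 to 0.74) with it and -0.17 without it.

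*sod-5*, the minor cytosolic copper/zinc enzyme, was at 0.175, 0.437 and 0.199 TPM in N2 *rpia-1* RNAi, against 0.701, 0.743 and 0.694 TPM in N2 EV. The 3 knockdown libraries all lay below the 3 EV libraries, at a mean of 0.270 against 0.713 TPM. Both means are under the 1 TPM filter. In a limma fit without the filter the log2(TPM + 1) difference was -0.44 (SE 0.11, unadjusted p = 0.0097), which was not called among 27044 genes (adjusted p = 0.93). Leaving out each library in turn gave -0.53 to -0.38.

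The manganese enzymes act in mitochondria. *sod-2*, the main one, was at 198, 220 and 213 TPM in N2 *rpia-1* RNAi, against 197, 229 and 201 TPM in N2 EV, with a 95% interval of -0.16 to 0.18 on the log2 scale. *sod-3*, the inducible form that is widely used as a reporter of the transcription factor DAF-16, was at 1.88, 0.139 and 1.08 TPM in N2 *rpia-1* RNAi, against 0.560, 1.14 and 1.33 TPM in N2 EV. The EV libraries lay within the range of the knockdown libraries, and the 95% interval of its difference, -0.95 to 0.83, leaves a change in either direction undetected at this spread.

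Of the catalases, *ctl-2*, the peroxisomal form, was at 10.9, 7.06 and 8.29 TPM in N2 *rpia-1* RNAi, against 9.82, 12.2 and 13.1 TPM in N2 EV. Its log2 difference of -0.39 (95% interval -0.84 to 0.06) was the most negative among the genes tested here, with 1 knockdown library inside the EV range (limma, adjusted p = 1.00, and 0.35 to 1.00 under the alternatives). Intestinal markers were also lower in the knockdown, summing to 1156 to 1180 TPM in N2 *rpia-1* RNAi and 1516 to 1851 TPM in N2 EV, and their part in the value was not tested. *ctl-1*, the cytosolic form, was at 36.3, 39.5 and 37.3 TPM in N2 *rpia-1* RNAi, against 48.1, 33.4 and 49.2 TPM in N2 EV, so that 1 low EV library placed the groups in overlap. *ctl-3*, a catalase described in pharyngeal muscle and neurons, was at 64.5, 75.2 and 71.3 TPM in N2 *rpia-1* RNAi, against 67.3, 67.5 and 66.1 TPM in N2 EV.

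The thiol enzymes lay close to their controls. *prdx-2* was at 1156, 1164 and 1149 TPM in N2 *rpia-1* RNAi, against 1148, 1256 and 1116 TPM in N2 EV, with a log2 difference of -0.02 (95% interval -0.15 to 0.11). *gsr-1* was at 138, 148 and 135 TPM in N2 *rpia-1* RNAi, against 145, 142.2 and 143 TPM in N2 EV, with a log2 difference of -0.03 (95% interval -0.14 to 0.08). For both genes the interval included 0 and the groups overlapped.

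**Figure D2:**
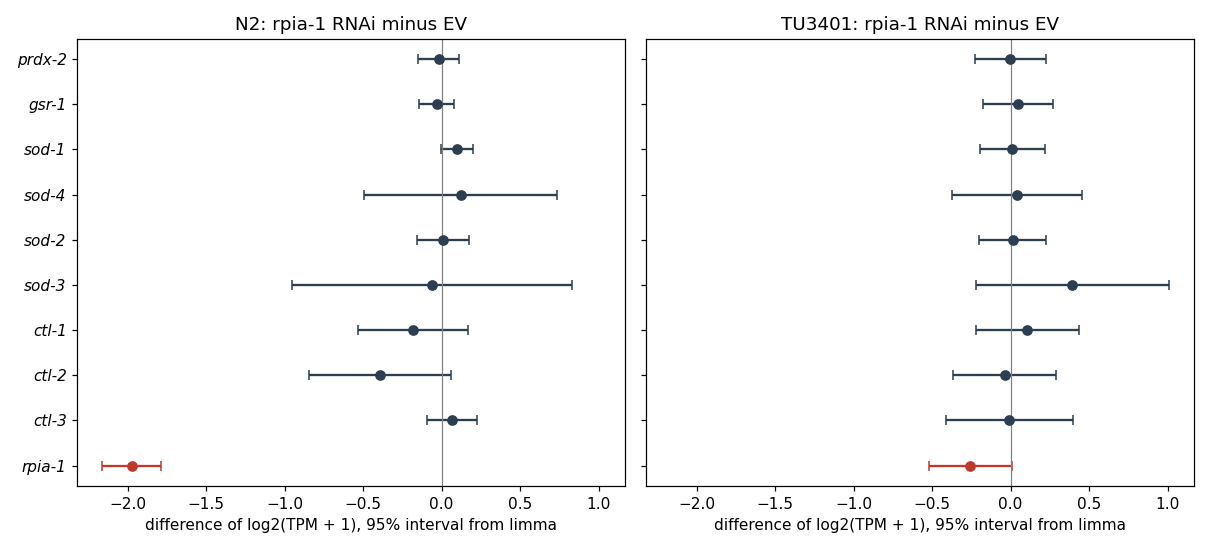
Difference of log2(TPM + 1) between *rpia-1* RNAi and EV for 9 antioxidant genes and *rpia-1*, in N2 (left) and TU3401 (right), with 95% intervals from limma. The intervals of the 9 antioxidant genes all include 0 in both strains, and *rpia-1* is at -1.97 in N2 and -0.26 in TU3401.

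The neuron-enhanced, whole-life knockdown in TU3401 gave the same count. Of the 9 antioxidant genes tested, 0 were called (limma), beside 0 of 13921 genes (0%), and 0 had an unadjusted p under 0.05, against 1.18% of all genes. Without a filter the count was 0 of 10 beside 0.0209% of all genes. For 0 of the 10 genes did the groups separate, beside 3.38% of the tested genes and 4.22% of those with a mean above 0 and under 1 TPM. The RNA of neurons was not measured apart from that of the other cells.

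*sod-3* had the largest difference, at 1.81, 1.57 and 3.45 TPM in TU3401 *rpia-1* RNAi, against 1.44, 0.945 and 1.99 TPM in TU3401 EV. Knockdown replicate 3 was the high one, and the log2 difference was 0.39 (95% interval -0.22 to 1.01) with all libraries and 0.15 to 0.55 when each was left out in turn. *ctl-1* was at 15.9, 20.4 and 19.6 TPM in TU3401 *rpia-1* RNAi, against 17.6, 17.96 and 16.03 TPM in TU3401 EV. *ctl-2* was at 22.1, 17.4 and 21.8 TPM in TU3401 *rpia-1* RNAi, against 21.5, 18.9 and 22.4 TPM in TU3401 EV. Both catalases overlapped between the groups. *ctl-3* was at 19.4, 18.4 and 17.5 TPM in TU3401 *rpia-1* RNAi, against 21.4, 21.1 and 14.0 TPM in TU3401 EV, where replicate 3 was low.

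The abundant enzymes lay close to their controls. *sod-1* was at 244, 237 and 236 TPM in TU3401 *rpia-1* RNAi, against 220, 239 and 255 TPM in TU3401 EV. *sod-2* was at 111, 120 and 112 TPM in TU3401 *rpia-1* RNAi, against 116, 106 and 118 TPM in TU3401 EV. The 95% intervals of their log2 differences were -0.20 to 0.22 and -0.20 to 0.23. *gsr-1* was at 83.5, 91.6 and 86.4 TPM in TU3401 *rpia-1* RNAi, against 84.2, 89.3 and 79.4 TPM in TU3401 EV, and *prdx-2* at 1001, 1134 and 1165 TPM against 1037, 1108 and 1157 TPM in the same order of groups. *sod-4* was at 8.78, 8.71 and 12.3 TPM in TU3401 *rpia-1* RNAi, against 8.47, 9.61 and 10.5 TPM in TU3401 EV. *sod-5* was listed at 0, 0.243 and 0 TPM in TU3401 *rpia-1* RNAi and at 0.129, 0 and 0.171 TPM in TU3401 EV, with a log2(TPM + 1) difference of -0.03 in the fit without a filter (95% interval -0.33 to 0.27).

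The change in N2 was then set against the change in TU3401 in a fit of all 12 libraries. Of the 9 genes tested, 0 differed in their change (limma), beside 0.00747% of 13383 genes, the 1 called gene being *rpia-1*, and 0 had an unadjusted p under 0.05, against 1.17% of all genes. Without a filter, after rescaling and with FPKM the count was also 0, beside 0.0309%, 0.00732% and 0% of all genes. Among the 9 genes the largest of these differences, N2 minus TU3401, were -0.46 for *sod-3* (95% interval -1.47 to 0.56), -0.35 for *ctl-2* (-0.86 to 0.16) and -0.29 for *ctl-1* (-0.73 to 0.15). In the fit without a filter *sod-5* had -0.41 (95% interval -0.75 to -0.065, limma, unadjusted p = 0.0249). It was not called among the 32385 genes of that fit, and its group means were all under 1 TPM.

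The 2 control groups, N2 EV labelled day 5 and TU3401 EV labelled day 0, differed in most of these genes. Of the 9 genes tested 7 were called, 6 of them higher in N2 EV and 1 lower (limma), beside 88.8% of all 13348 genes, of which 43.4% were higher and 45.4% lower. A count of 7 in 9 is close to that background. The groups did not overlap for 8 of the 10 genes, beside 89.6% of the tested genes and 23.3% of those with a mean above 0 and under 1 TPM. The scaling changed the picture. Rescaling the libraries by the median ratio over genes of at least 5 TPM moved the median log2 difference of all genes by -0.69, to -0.74, where it was -0.06 as deposited, and the calls split into 3275 higher and 8304 lower, instead of 5798 higher and 6061 lower. Of the antioxidant genes 6 were called after rescaling, beside 84.7% of all genes, and 5 with FPKM, beside 76.0%.

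The catalases held their direction and their call under both scalings and under every other alternative run. *ctl-3* was at 67.3, 67.5 and 66.1 TPM in N2 EV, against 21.4, 21.1 and 14.0 TPM in TU3401 EV, a ratio of means of 3.55. Its log2 difference was 1.80 (SE 0.15, limma, adjusted p = 2.3e-06), and 1.115 after rescaling. *ctl-1* was at 48.1, 33.4 and 49.2 TPM in N2 EV, against 17.6, 17.96 and 16.03 TPM in TU3401 EV, with a log2 difference of 1.27 (SE 0.15, limma, adjusted p = 2.4e-05), and 0.59 after rescaling. *ctl-2* ran the other way, at 9.82, 12.2 and 13.1 TPM in N2 EV, against 21.5, 18.9 and 22.4 TPM in TU3401 EV, and its log2 difference was -0.80 (SE 0.13, limma, adjusted p = 2.5e-04), and -1.46 after rescaling. The 3 genes lie side by side on the minus strand of chromosome II, *ctl-2* at 14299556 to 14302027, *ctl-1* at 14303568 to 14306260 and *ctl-3* at 14307798 to 14310779 (WBcel235), with 1540 and 1537 bases between neighbours. How alike the 3 sequences are was not measured here, and how reads matching more than 1 of them were counted is not given in the sources used here, so the split between the single catalases is uncertain.

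Shares within a library do not depend on its scaling. *ctl-2* made up 9.61% ± 1.56 of the summed catalase TPM in N2 EV, against 37.0% ± 5.19 in TU3401 EV, and *ctl-3* 55.0% ± 4.22 and 32.8% ± 5.32 in the same order (SD, n = 3 each). The share of *ctl-1* was 35.4% ± 5.11 in N2 EV, against 30.2% ± 0.983 in TU3401 EV. The summed catalase TPM was 122 ± 8.09 in N2 EV, against 56.99 ± 4.09 in TU3401 EV. With the knockdown it was 117 ± 5.01 in N2 *rpia-1* RNAi and 57.5 ± 1.37 in TU3401 *rpia-1* RNAi. The share of *ctl-2* was 7.55% ± 2.02 in N2 *rpia-1* RNAi and 35.5% ± 3.96 in TU3401 *rpia-1* RNAi, so its ranges in the 2 strains lay apart with the knockdown as with EV.

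**Figure D3:**
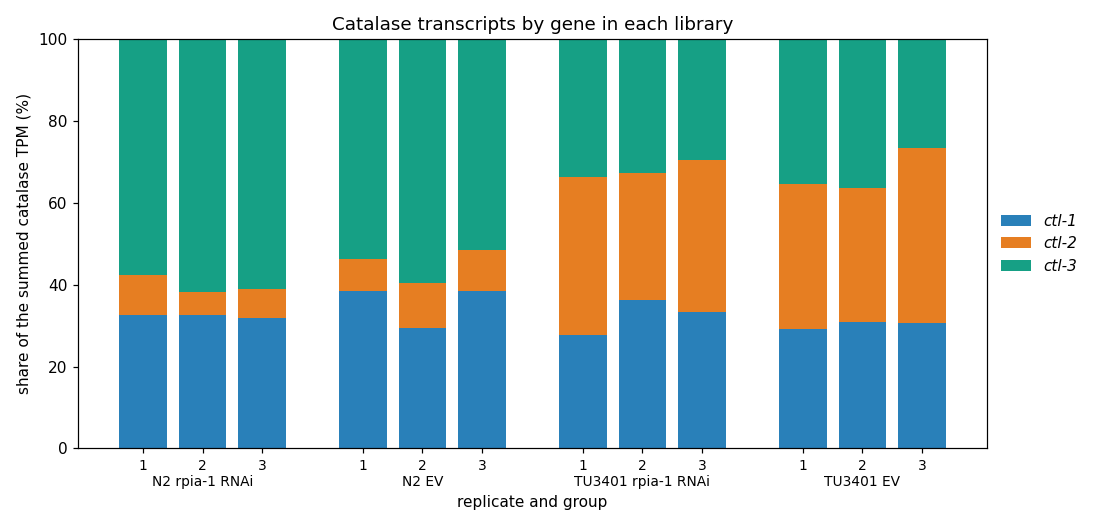
Share of *ctl-1*, *ctl-2* and *ctl-3* in the summed catalase TPM of each of the 12 libraries, in percent, stacked to 100. In the 6 N2 libraries *ctl-2* takes 5.80% to 10.8% and *ctl-3* more than any other catalase, while in the 6 TU3401 libraries *ctl-2* takes 30.998% to 42.7%.

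*sod-2* and *gsr-1* were called higher in N2 EV as deposited, but both lost the call after rescaling. *sod-2* was at 197, 229 and 201 TPM in N2 EV, against 116, 106 and 118 TPM in TU3401 EV, with a log2 difference of 0.88 (SE 0.08, limma, adjusted p = 4.9e-06), and 0.17 after rescaling (limma, adjusted p = 0.13). *gsr-1* was at 145, 142.2 and 143 TPM in N2 EV, against 84.2, 89.3 and 79.4 TPM in TU3401 EV, with a log2 difference of 0.76 (SE 0.07, limma, adjusted p = 4.3e-06), and 0.06 after rescaling (limma, adjusted p = 0.19). Ratios within a library, which no scaling changes, differed too. The *sod-2* to *sod-1* ratio was 0.752 ± 0.0580 in N2 EV, against 0.478 ± 0.0419 in TU3401 EV, and the *gsr-1* to *prdx-2* ratio 0.123 ± 0.00822 and 0.0768 ± 0.00709 (SD, n = 3 each). In both cases the 2 ranges lay apart, so *sod-2* and *sod-1* did not keep the same proportion in the 2 control groups, nor did *gsr-1* and *prdx-2*.

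*sod-1* and *sod-4* changed direction with the scaling. *sod-1* was at 273, 280 and 280 TPM in N2 EV, against 220, 239 and 255 TPM in TU3401 EV, with a log2 difference of 0.23 (SE 0.07, limma, adjusted p = 0.012), and -0.48 after rescaling (limma, adjusted p = 0.0012). *sod-4* was at 11.4, 12.4 and 15.6 TPM in N2 EV, against 8.47, 9.61 and 10.5 TPM in TU3401 EV, with a log2 difference of 0.42 (SE 0.14, limma, adjusted p = 0.019), and -0.23 after rescaling. The call of *sod-1* was also lost without TU3401 EV replicate 1 (limma, adjusted p = 0.059), and that of *sod-4* without that library (limma, adjusted p = 0.077) or without N2 EV replicate 3 (limma, adjusted p = 0.074). With FPKM neither was called, at 0.06 for *sod-1* and 0.25 for *sod-4*. *sod-4* also lost its call without a filter and in the fit of all 12 libraries, where *sod-1* kept its own.

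*prdx-2* and *sod-3* were not called as deposited. *prdx-2* was at 1148, 1256 and 1116 TPM in N2 EV, against 1037, 1108 and 1157 TPM in TU3401 EV, with a log2 difference of 0.09 (95% interval -0.07 to 0.26), but -0.62 after rescaling (limma, adjusted p = 4.1e-04). *sod-3* was at 0.560, 1.14 and 1.33 TPM in N2 EV, against 1.44, 0.945 and 1.99 TPM in TU3401 EV, with a log2 difference of -0.29 (95% interval -0.77 to 0.19), and -0.67 after rescaling (limma, adjusted p = 0.029). *sod-5* was at 0.701, 0.743 and 0.694 TPM in N2 EV, against 0.129, 0 and 0.171 TPM in TU3401 EV, and in the fit without a filter its log2(TPM + 1) difference was 0.64 (SE 0.07, limma, adjusted p = 0.0011), beside 48.4% of 28778 genes called there.

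**Figure D4:**
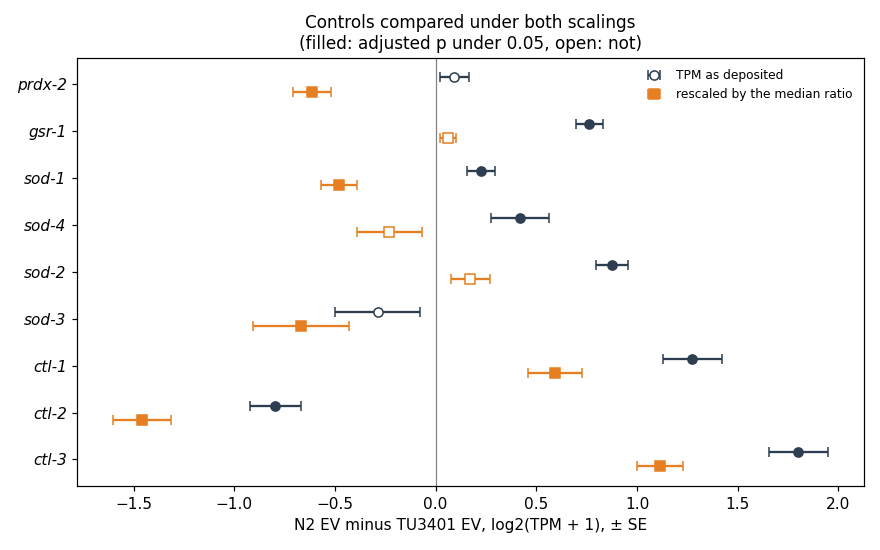
Log2 difference of N2 EV minus TU3401 EV for 9 genes, with SE from limma, for the TPM as deposited (circles) and after rescaling by the median ratio (squares), where filled symbols have an adjusted p under 0.05. *ctl-1* and *ctl-3* stay above 0 and *ctl-2* below under both scalings, while *sod-1*, *sod-4* and *prdx-2* are above 0 as deposited and below 0 after rescaling.

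When the knockdown libraries of the 2 strains were compared in place of the EV libraries, an alternative chosen after seeing the data, 6 of the 9 genes were called (limma), beside 79.9% of all genes. The log2 differences, N2 *rpia-1* RNAi minus TU3401 *rpia-1* RNAi, were 1.87 for *ctl-3*, 0.99 for *ctl-1*, 0.87 for *sod-2*, 0.68 for *gsr-1*, 0.31 for *sod-1* and -1.15 for *ctl-2*. *sod-4* differed by 0.50 and was not called (limma, adjusted p = 0.13).

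Tissue markers moved with these values, and their part in them was not tested. Intestinal markers summed to 1706 ± 172 TPM in N2 EV, against 7644 ± 330 TPM in TU3401 EV (SD, n = 3 each), the direction of *ctl-2*. That direction was not particular to the intestine. The body wall muscle and sperm sums given above shared it. So did hypodermis and cuticle markers, whose sum rose from 14.2 ± 3.19 TPM (N2 EV) to 740 ± 130 TPM (TU3401 EV). The sum of embryo markers ran the other way, with 156 ± 10.7 TPM for N2 EV, against 87.9 ± 10.9 TPM for TU3401 EV. That sum was made mostly of *lin-26*, at a log2 difference of 1.07. *pha-4* (-1.67) and *elt-7* (-1.68), from the same list, were lower in N2 EV. Germline and oocyte markers summed to more TPM in N2 EV as deposited, with *glh-1* at a log2 difference of 0.03 and *puf-5* at 1.61, the direction of *ctl-1*, *ctl-3*, *sod-2* and *gsr-1* as deposited. Neuronal markers summed to 415 ± 15.99 TPM in N2 EV, against 237 ± 9.09 TPM in TU3401 EV, a sum made mostly of *snb-1*. As deposited, *snb-1* (0.89) and *unc-119* (1.09) were higher in N2 EV on the log2 scale, while *ric-4* (-2.02), *rab-3* (-1.33) and *unc-31* (-0.36) were lower. Genes on the opposite strand overlap some of the 10. The low gene *sod-3* shares 24 bases with *lido-1*, at 12.8 ± 1.37 TPM in N2 EV, against 4.70 ± 0.903 TPM in TU3401 EV. It also shares 547 bases with C08A9.3, at a mean of 0.0204 TPM over the 12 libraries. *sod-2*, on chromosome I, lies wholly within *dpt-1*, which was at 93.2 ± 1.80 TPM in N2 EV, against 65.9 ± 4.06 TPM in TU3401 EV, and *sod-4* shares 175 bases with *ctr-9*, at 89.3 ± 1.47 TPM and 46.0 ± 6.07 TPM in the same order. *ctl-2* shares 65 bases with Y54G11A.7, which was at 10.5 ± 0.910 TPM in N2 EV, against 67.7 ± 5.15 TPM in TU3401 EV, and *gsr-1* shares 93 bases with C46F11.5, at 49.7 ± 0.498 TPM and 19.7 ± 0.0815 TPM. The library kit keeps the strand, but whether the counting used it is not given in the sources used here, so reads of such partners may be mixed.

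The rest of the antioxidant system was read from 7 lists of genes. In both knockdowns 0 members of any list were called (limma), under TPM, FPKM or rescaling, beside 0.00941% of all genes in N2 and 0% in TU3401 as deposited. The first list is the thioredoxin system and peroxiredoxins (7 genes tested in N2 and 8 in TU3401). Next come glutathione synthesis, glutathione peroxidases and glutaredoxins (11 and 14), repair (2 and 2) and NADPH supply (7 and 7). Regulators (8 and 8) and reporters of SKN-1 and DAF-16 (7 and 5) follow. The last list holds sources of superoxide or peroxide and the thiolase gene *daf-22* (4 and 4). An unadjusted p under 0.05 was seen for 1 list gene in N2 and 0 in TU3401, beside 1.66% and 1.18% of all genes. That gene, *dod-3*, which lies downstream of *daf-16*, was at 28.3 ± 5.86 TPM in N2 *rpia-1* RNAi and 37.4 ± 2.39 TPM in N2 EV (SD, n = 3 each), with a log2 difference of -0.41 (limma, unadjusted p = 0.0318, adjusted p = 1.00). Of the 7 reporters in N2, 6 had a difference below 0, with a median of -0.39 beside 0.00 for all genes, and *gst-4*, the glutathione transferase used as a SKN-1 reporter, was at 3.59 ± 0.575 TPM in N2 *rpia-1* RNAi and 4.91 ± 0.390 TPM in N2 EV. The 5 intestinal markers also lay below 0 in this comparison, between -0.58 (*vit-6*) and -0.23 (*elt-2*), and their part in the reporters' values was not tested. In TU3401 the reporter with the smallest p, *gst-10*, was at 66.6 ± 6.72 TPM in TU3401 *rpia-1* RNAi and 76.9 ± 14.9 TPM in TU3401 EV.

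Of the NADPH supply list, 0 of 7 genes were called in either knockdown (limma). *gspd-1*, the glucose-6-phosphate dehydrogenase that makes NADPH at the entry of the pentose phosphate pathway, had a log2 difference of -0.04 in N2 (95% interval -0.19 to 0.10) and -0.02 in TU3401 (-0.29 to 0.26). T25B9.9, the phosphogluconate dehydrogenase that makes NADPH later in it, had 0.01 in N2 (-0.084 to 0.098) and 0.01 in TU3401 (-0.29 to 0.30). *idh-1*, the cytosolic isocitrate dehydrogenase, was at 411 ± 6.46 TPM in N2 *rpia-1* RNAi and 402 ± 8.89 TPM in N2 EV, and *idh-2*, the mitochondrial one, at 20.2 ± 3.62 TPM and 18.4 ± 0.644 TPM in the same order (SD, n = 3 each). In TU3401 Y57G11C.3, which encodes 6-phosphogluconolactonase of the pentose phosphate pathway, was at 74.7 ± 4.92 TPM in TU3401 *rpia-1* RNAi and 72.1 ± 9.15 TPM in TU3401 EV, and *nnt-1*, the nicotinamide nucleotide transhydrogenase, at 1.11 ± 0.676 TPM and 1.23 ± 0.238 TPM. Thioredoxin reductase *trxr-1* was at 104 ± 1.87 TPM in N2 *rpia-1* RNAi and 102 ± 2.52 TPM in N2 EV, and its mitochondrial partner *trxr-2* at 12.5 ± 1.00 TPM and 13.6 ± 1.99 TPM. *gcs-1*, which makes the first step of glutathione synthesis and is a SKN-1 target, was at 104 ± 1.44 TPM in N2 *rpia-1* RNAi and 101 ± 1.59 TPM in N2 EV. The glutathione peroxidase *gpx-2* was at 60.5 ± 3.37 TPM in N2 *rpia-1* RNAi and 66.6 ± 0.620 TPM in N2 EV, with a log2 difference of -0.14 (limma, unadjusted p = 0.0501, adjusted p = 1.00).

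Between the controls the lists split by scaling as the 10 genes did. Of 8 thioredoxin system genes, 7 were called higher in N2 EV and 1 lower as deposited (limma), but 0 higher and 4 lower after rescaling. Beside all counts of this kind stand the 88.8% of all genes called as deposited, 43.4% higher and 45.4% lower, and the 84.7% called after rescaling. Of 13 glutathione genes, 6 were called higher and 5 lower as deposited, and 0 higher and 10 lower after rescaling. The NADPH list had 3 called higher and 3 lower of 7 as deposited, and 0 and 5 after rescaling. The 4 tested genes of the list of superoxide or peroxide sources were called lower under both scalings. Among them *acox-1.1*, a peroxide-forming acyl-CoA oxidase, was at 3.89 ± 0.880 TPM in N2 EV, against 26.6 ± 3.89 TPM in TU3401 EV. *daf-22*, on that list although it encodes the peroxisomal thiolase and not an oxidase, was at 7.78 ± 0.880 TPM and 40.7 ± 2.93 TPM in the same order. Both repair genes, *msra-1* and *sesn-1*, were also called lower under both. Of 8 regulators, 7 were called higher and 1, *pqm-1*, lower as deposited, and 5 higher and 1 lower after rescaling. *daf-2*, the insulin receptor gene, was at 41.3 ± 0.539 TPM in N2 EV, against 17.4 ± 2.70 TPM in TU3401 EV, and was called higher under both scalings. Of the 7 reporters 3 were called higher under both scalings, *mtl-1*, *lea-1* and *dod-3*, and 3 lower as deposited and 4 after rescaling. *mtl-1*, a metallothionein, was at 149 ± 19.3 TPM in N2 EV, against 0.803 ± 0.579 TPM in TU3401 EV. *sod-3*, another gene used as a DAF-16 reporter, was not higher in N2 EV under either scaling.

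Over the 12 libraries the genes most like each of the 10 were found by Pearson's correlation of log2(TPM + 1) among 9144 genes. These values describe 12 libraries in 4 groups, so a difference between the strains enters them. For *ctl-2* they were M04D5.3 (0.99) and *ges-1* (0.99), the intestinal esterase among the tissue markers, and within groups, after each group's mean was removed, the correlation of *ctl-2* was 0.96 with M04D5.3 and 0.94 with *ges-1*. For *gsr-1* the closest was *swsn-9* (1.00, and 0.88 within groups), for *ctl-3* *aos-1* (1.00 and 0.90) and for *sod-2* F14D2.15 (1.00 and 0.88). For *ctl-1* it was *eipr-1* (0.98 and 0.80), for *sod-1* *emc-2* (0.96 and 0.58) and for *sod-4* F46E10.2 (0.96 and 0.98). The weakest likeness was that of *prdx-2*, whose closest gene, K07A1.15, reached 0.84. Among the 10 genes themselves, *ctl-3* and *gsr-1* were most alike over the 12 libraries (0.99, and 0.58 within groups). *ctl-2* ran against *ctl-3* (-0.93 and -0.41) and against *gsr-1* (-0.93 and -0.69). Within groups the most alike were *sod-3* and *ctl-2* (0.87), then *sod-4* and *sod-3* (0.80) and *sod-4* and *ctl-2* (0.77). N2 *rpia-1* RNAi replicate 1 stood above its group mean in *sod-4* (0.58), *sod-3* (0.60) and *ctl-2* (0.31), the largest upward deviation of each. The deviation of *sod-3* in replicate 2 of that group was larger in size, at -0.74.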

How the data were processed

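RNA of whole worms was measured in 12 libraries, grouped by the sample labels. The authors deposited FPKM and TPM values per gene and library. The deposited TPM columns sum to 1025900 to 1036140, above the sum TPM has by definition, so they were taken as a linear signal. The submitters' processing notes name FastQC 0.11.9, MultiQC 1.12, Trimmomatic 0.36, HISAT2 2.2.1 and featureCounts 1.6.2 without roles, and the authors' genome build is not given in the sources used here. Of 46904 gene IDs, 46817 matched the Ensembl 115 annotation of WBcel235, from which positions were taken.

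Comparisons were fitted with limma 3.58.1 (R 4.3.3, moderated with a trend of variance on level) on log2(TPM + 1), keeping genes that averaged 1 TPM or more in the compared libraries. Fold changes on this scale understate the change of low genes. p-values were adjusted over all tested genes (Benjamini-Hochberg) and called under 0.05. Single genes were also tested by exact two-sided permutation of mean TPM (SciPy 1.17.1). The fit was tested on simulated data.

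The 10 genes, the lists and the tests were chosen with earlier results of these data known. Named are the 10 genes, *rpia-1* and a selection from each list. That selection took genes with the smallest p in a knockdown comparison or the largest absolute log2 difference between the controls. *gspd-1* and T25B9.9 were named outside that rule. *lea-1* was named after its values were seen. Alternatives were pseudocounts of 0.1 and 5 TPM, no filter or 5 TPM, FPKM, rescaling by the median ratio over genes of at least 5 TPM in every library, no trend, a fit of all 12 libraries, a replicate block and leaving out each library.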

Additional observations from a re-analysis of the deposited data

How the results depend on the processing

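Among the 10 genes 0 were called in either knockdown, or in the difference between them, under any alternative run, so these alternatives moved only signs and sizes. The number of all genes called in N2 was 2 without a filter and 1 to 33 when each library was left out, with 33 without N2 *rpia-1* RNAi replicate 1. In TU3401 it was 6 without a filter and 0 to 1 when each library was left out. For the difference between the changes it was 10 without a filter, 0 with FPKM and 1 to 2 when each library was left out. The cause of these shifts was not tested. Numbers of genes called between the controls ran from 8274 to 13942, and of the 10 genes 5 to 7, with 5 for FPKM (*sod-2*, *gsr-1* and the 3 catalases).

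FPKM moved the median of all genes by -0.13 in N2 and -0.15 in TU3401, and signs turned for *sod-1* (-0.032), *sod-2* (-0.12) and *ctl-3* (-0.061) in N2, and for *sod-1* (-0.16), *sod-4* (-0.11), *sod-2* (-0.15), *ctl-1* (-0.052) and *gsr-1* (-0.12) in TU3401. FPKM summed to 739143 in N2 EV replicate 2, against 533902 to 561209 in the other N2 libraries. In TU3401 EV replicate 3 it summed to 846560, against 585373 to 608507 in the other TU3401 libraries. The part of these libraries in the shift was not tested. Between the controls FPKM gave *prdx-2* -0.073. For the difference between the changes it gave *sod-2* 0.034 and *prdx-2* 0.021. Rescaling gave *sod-1* -0.013 and *sod-2* -0.011 in TU3401, *sod-1* -0.48, *sod-4* -0.23 and *prdx-2* -0.62 between the controls, and *sod-2* 0.044 and *prdx-2* 0.030 for the difference between the changes.

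Leaving out each library turned signs where the main value was small beside its error. In N2 the lowest and highest log2 differences were -0.030 and 0.078 for *sod-2*, -0.054 and 0.030 for *prdx-2*, -0.17 and 0.28 for *sod-4* and -0.24 and 0.30 for *sod-3*. In TU3401 they were -0.042 and 0.061 for *sod-1*, -0.11 and 0.12 for *sod-4*, -0.033 and 0.043 for *sod-2*, -0.11 and 0.068 for *ctl-2*, -0.20 and 0.090 for *ctl-3*, and -0.046 and 0.064 for *prdx-2*. For the difference between the changes they were -0.21 and 0.24 for *sod-4*, -0.043 and 0.065 for *sod-2*, -0.084 and 0.033 for *prdx-2* and -0.023 and 0.26 for *ctl-3*.

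Samples with the same replicate number correlated in their deviations from the group means by -0.44, 0.04 and -0.41 in N2, 0.05, 0.44 and 0.42 in TU3401, and 0.09, -0.11 and 0.03 between the controls, so the numbers were not taken as pairs, and in no comparison did every sample correlate best with its own number. With the replicate block 1 gene was called in N2, 0 in TU3401, 11844 between the controls and 1 for the difference between the changes, and of the 10 genes 0, 0, 7 and 0. The replicate block changed no call among the 10 genes.

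Without read counts, the counting error of low genes such as *sod-3* and *sod-5* is unknown, and their errors rest on the spread between replicates alone. With 3 samples per group a single gene cannot pass an exact permutation test at 0.05.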
